A study of Homo sapiens with 19 samples.

Results

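Hepatocyte transcription factors are described here through 9 genes, HNF4A, FOXA1, FOXA2, FOXA3, CEBPA, PROX1, ONECUT1, NR1H4 and NR5A2, of the 25579 genes measured on each of 19 arrays. They were taken from a list of names and not by a threshold on their values. That list was chosen with earlier results of these data known. Each factor is a single row of the expression table. HepG2 cells, a line established from a human liver tumour, were transfected with small interfering RNAs (siRNAs) against YAP1, against WWTR1 (the gene that encodes TAZ) or against both, and total RNA was taken 24 h later and hybridised to Affymetrix arrays after biotin labelling. YAP knockdown comprised siYAP1 (n = 3) and siYAP2 (n = 3), and TAZ knockdown comprised siTAZ2 (n = 3) and siTAZ3 (n = 2), each siRNA at 20 nM. Combined knockdown comprised the pairs siTAZ2_siYAP1 (n = 3) and siTAZ3_siYAP2 (n = 2). Control cells (n = 3) received a nonsense siRNA with the same reagent, Oligofectamine. For the pairs and for control the study's design text gives a total dose of 40 nM, whereas the treatment protocol gives 20 nM for every siRNA, so their dose is uncertain. The labels do not say that replicates came from separate cultures, so the p-values measure only how far these samples varied, and that variation may be technical. The cells are a single tumour line and the knockdown was transient.

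YAP and TAZ are the transcriptional coactivators that the Hippo kinase pathway restrains. They do not bind DNA themselves and act mostly through TEAD factors. Hepatocyte identity rests on a network of transcription factors that bind one another's promoters and the same liver enhancers. In mice, forced YAP activity is known to move hepatocytes towards a progenitor or biliary state. Within the network, HNF4A is a nuclear receptor that drives lipoprotein, clotting factor and gluconeogenic genes, the FOXA proteins are pioneer factors that open liver enhancers, and CEBPA is a leucine zipper factor of metabolic and growth-restraining genes. PROX1 is a homeobox factor that in mice is needed for hepatoblast migration, and ONECUT1 (HNF6) is a cut-homeobox factor of the hepatocyte and biliary lineages. NR1H4 (FXR) is the bile acid receptor, and NR5A2 (LRH-1) is an orphan receptor that promotes bile acid and cholesterol transport genes.

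Values are the authors' log2 RMA values, and a difference of 1 is a doubling of the array signal. A gene passed where the adjusted p of limma, with Benjamini-Hochberg adjustment over all 25579 genes, was under 0.05. Each siRNA lowered its target, with smaller shifts in the other gene. YAP1 lay between 7.0 and 7.25 on the 6 YAP knockdown arrays, against 9.81 to 9.87 on the 3 control arrays, and was 6.59-fold lower. WWTR1 lay between 6.33 and 7.13 on the 5 TAZ knockdown arrays, against 9.49 to 9.61 in control, and was 7.08-fold lower. By siRNA WWTR1 was 5.96-fold lower with siTAZ2 and 8.42-fold with siTAZ3 (siTAZ2 minus siTAZ3 0.50, adjusted p = 0.0713). It was 5.07-fold lower with siTAZ2_siYAP1 and 9.53-fold with siTAZ3_siYAP2, and this difference between the pairs passed (0.91, adjusted p = 0.000378). In combined knockdown YAP1 was 4.6-fold and WWTR1 6.95-fold lower than in control. YAP1 was 0.52 log2 units higher in combined than in YAP knockdown (adjusted p = 0.000281), so its signal was less reduced in the pairs. The part of unequal silencing in the results below was not tested. YAP1 was also lower on the 5 TAZ arrays, by 0.32 log2 units (adjusted p = 0.0367), and WWTR1 differed by -0.36 (adjusted p = 0.0671) on the 6 YAP arrays, all below control. All 9 listed hepatocyte marker genes were above the 95th percentile of 354 olfactory receptor genes, which served as a background level (4.74), and so were 9 of 11 fetal liver, progenitor and biliary markers. None of 4 endothelial markers was above it, with 1 of 4 immune markers (CD68) and 1 of 5 stromal markers (COL1A1). The mean level of the hepatocyte markers ran from 11.42 to 11.55 with siYAP1, 11.59 to 11.65 with siYAP2, 11.55 to 11.70 with siTAZ2, 11.67 to 11.70 with siTAZ3, 11.63 to 11.67 with siTAZ2_siYAP1 and 11.72 to 11.72 with siTAZ3_siYAP2, against 11.50 to 11.55 in control. It was above all 3 control arrays on all 10 arrays with a TAZ siRNA, on 3 of 3 siYAP2 arrays and on 1 of 3 siYAP1 arrays, and its part in the results below was not tested. An earlier deposit already held the control arrays and the YAP arrays but not those with a TAZ siRNA, so knockdown and deposit cannot be told apart where TAZ or combined arrays were compared with control or YAP arrays. One array, labelled siTAZ2 replicate 3, stood apart, with a median correlation of 0.987 with the other arrays, where the other 18 had at least 0.993. Its deviation touches several of the 9 factors, and calls of theirs that it changes are given with and without it.

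All 9 factors were above the olfactory receptor background on 19 of 19 arrays, with ONECUT1 nearest to it. ONECUT1 averaged 5.37 over the arrays and reached 5.0 at its lowest. Averages of the others were 10.59 for HNF4A, 10.02 for FOXA1, 8.14 for FOXA2, 7.06 for FOXA3, 8.93 for CEBPA, 9.53 for PROX1, 8.25 for NR1H4 and 6.35 for NR5A2. Levels of different probe sets are not set against one another. Over all arrays NR1H4 spanned 1.19 log2 units, the widest range of the 9, and PROX1 spanned 0.46, the narrowest. Differences between groups were small against the knockdown of the targets, with differences from control of at most 0.56 log2 units for any siRNA or pair over all 19 arrays (NR1H4 with siTAZ3) and at most 0.59 without siTAZ2 replicate 3 (FOXA1 with siTAZ2).

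**Figure D1:**
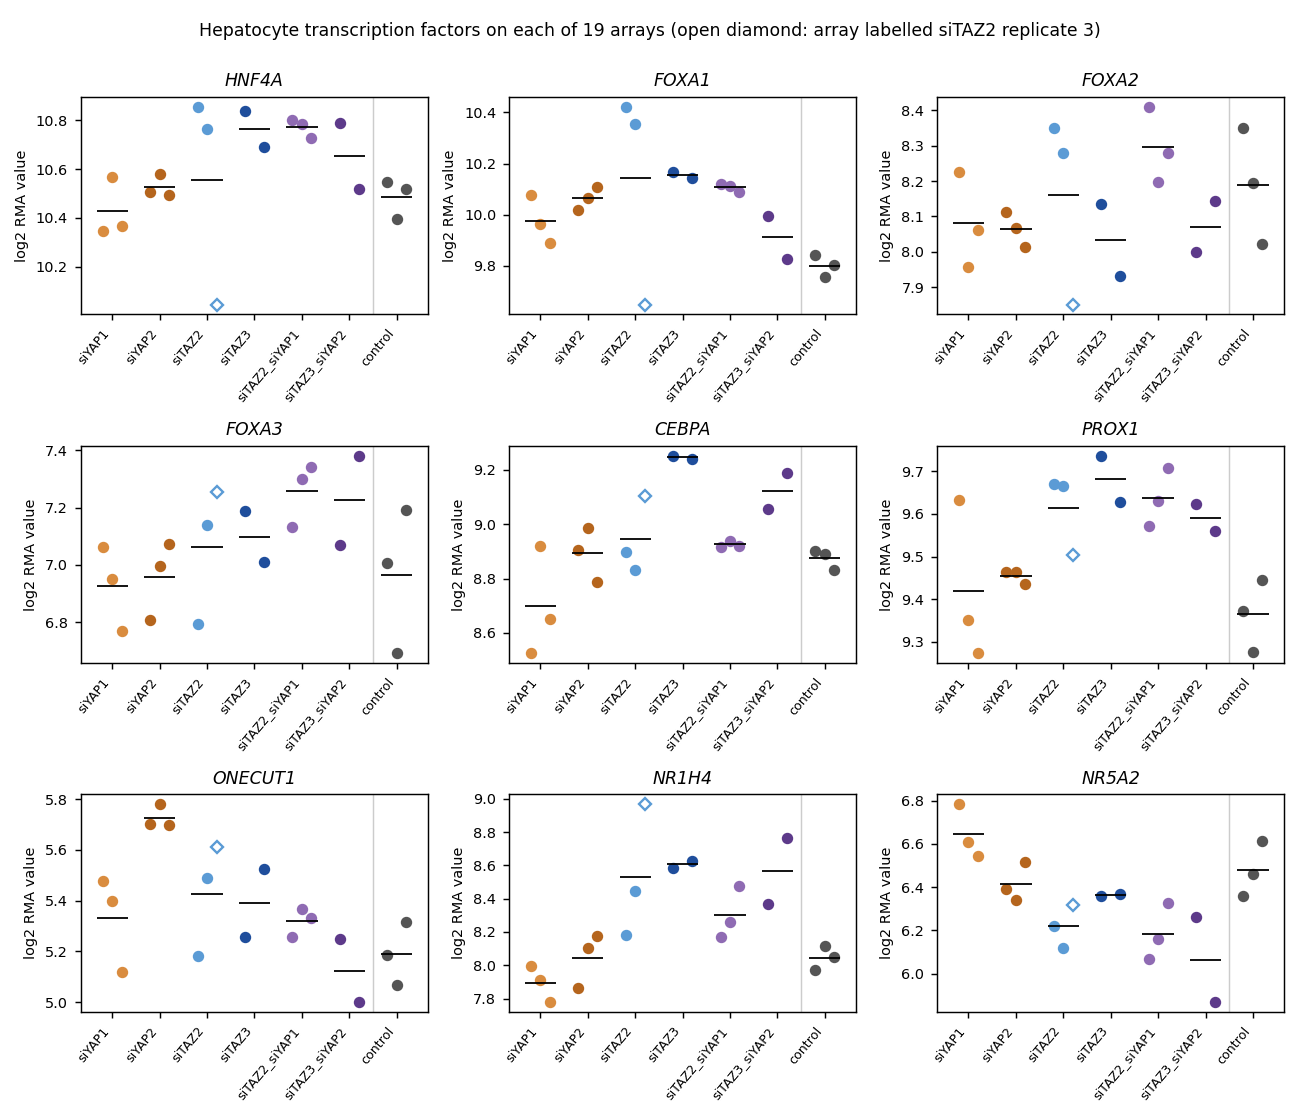
Log2 RMA value of each of the 9 factors (vertical axes, 1 panel per gene, axes not starting at 0) on all 19 arrays, by siRNA or pair along the horizontal axis with control at the right. Points are arrays, horizontal lines are group means, and the open diamond is the array labelled siTAZ2 replicate 3. The NR1H4 points of all 10 arrays with a TAZ siRNA lie above the 3 control points, and the siYAP2 points of ONECUT1 lie above every other array of that gene.

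Of the 9 factors, 4 passed in at least 1 of the 16 comparisons over all 19 arrays, namely NR1H4, NR5A2, CEBPA and ONECUT1. Their promoters are shown as the sequences next to the genes whose signal changed, from RefSeq on GRCh38.p14, running from 250 bases before to 50 bases after the transcription start in the direction of the gene. NR5A2 has 2 entries. Capitals mark a match to any of 3 motifs searched on both strands.
NR1H4 promoter, chr12:100503110-100503409, plus strand: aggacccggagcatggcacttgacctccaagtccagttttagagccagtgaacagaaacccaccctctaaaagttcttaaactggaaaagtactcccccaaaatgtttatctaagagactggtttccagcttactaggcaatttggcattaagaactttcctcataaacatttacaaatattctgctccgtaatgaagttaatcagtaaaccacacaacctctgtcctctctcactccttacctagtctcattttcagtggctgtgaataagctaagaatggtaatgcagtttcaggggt
NR5A2 promoter, chr1:200027460-200027759, plus strand: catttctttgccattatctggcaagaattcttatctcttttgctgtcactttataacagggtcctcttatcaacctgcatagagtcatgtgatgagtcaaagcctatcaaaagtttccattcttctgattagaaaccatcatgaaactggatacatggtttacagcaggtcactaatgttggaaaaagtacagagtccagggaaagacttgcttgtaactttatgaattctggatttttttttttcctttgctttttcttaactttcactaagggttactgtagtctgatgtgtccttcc
NR5A2 promoter, chr1:200042341-200042640, plus strand: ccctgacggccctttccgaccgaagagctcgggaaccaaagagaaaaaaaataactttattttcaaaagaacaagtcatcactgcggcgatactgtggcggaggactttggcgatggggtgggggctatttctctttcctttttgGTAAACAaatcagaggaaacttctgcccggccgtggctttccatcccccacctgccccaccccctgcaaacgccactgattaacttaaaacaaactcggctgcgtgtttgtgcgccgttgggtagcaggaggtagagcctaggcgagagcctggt
CEBPA promoter, chr19:33302485-33302784, minus strand: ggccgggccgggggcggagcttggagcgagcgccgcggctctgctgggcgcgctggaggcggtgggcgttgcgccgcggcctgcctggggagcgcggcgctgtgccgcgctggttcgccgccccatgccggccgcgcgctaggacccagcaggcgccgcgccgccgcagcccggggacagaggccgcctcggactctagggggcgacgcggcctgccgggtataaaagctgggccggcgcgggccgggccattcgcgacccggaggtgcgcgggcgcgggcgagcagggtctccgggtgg
ONECUT1 promoter, chr15:52790287-52790586, minus strand: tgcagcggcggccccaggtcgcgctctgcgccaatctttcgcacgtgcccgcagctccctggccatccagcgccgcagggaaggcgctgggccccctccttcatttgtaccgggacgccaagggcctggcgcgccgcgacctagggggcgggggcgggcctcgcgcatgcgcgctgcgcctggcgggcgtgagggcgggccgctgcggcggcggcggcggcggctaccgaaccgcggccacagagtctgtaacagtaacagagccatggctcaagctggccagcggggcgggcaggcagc
The motifs were GGAATG, the core that TEAD factors bind, TGTTTAC, a forkhead motif that FOXA proteins bind, and CAAAGTCCA, an HNF4-type motif. They do not overlap one another in these promoters. Of 35116 RefSeq promoters of the same length, 14% held GGAATG, 3.42% held TGTTTAC and 0.384% held CAAAGTCCA, on either strand. The table had entries for 7 of the 9 factors, 9 promoters in all. GGAATG and CAAAGTCCA were in none of these 9 promoters, and the forkhead motif was in 1 of them, the second NR5A2 promoter, as GTAAACA at position -105 from the start. CEBPA and ONECUT1 promoters were rich in G and C (80.7% and 75%), whereas that of NR1H4 held 41.7% and those of NR5A2 36.7% and 52.7%.

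NR1H4, the bile acid receptor, had the largest difference of the 9 when YAP knockdown was set against TAZ knockdown. It read 7.99, 7.91 and 7.78 with siYAP1 and 7.86, 8.10 and 8.17 with siYAP2, and 8.18, 8.45 and 8.97 with siTAZ2 and 8.59 and 8.63 with siTAZ3. The pairs gave 8.17, 8.26 and 8.48 (siTAZ2_siYAP1) and 8.37 and 8.77 (siTAZ3_siYAP2), against 7.97, 8.12 and 8.05 in control. All 10 arrays with a TAZ siRNA lay above the 3 control arrays, whereas YAP arrays lay on both sides of them, and the mean hepatocyte marker level was likewise above control on those 10. YAP knockdown was lower than TAZ knockdown by 0.60 log2 units (SE 0.12, limma adjusted p = 0.00595), which is 66.0% of the TAZ level, and without siTAZ2 replicate 3 the difference was -0.49 (adjusted p = 0.00215). In this comparison 5.59% of all genes passed. NR1H4 passed in 19 of 19 fits that each left out an array, with an adjusted p of at most 0.0365. Against control, TAZ knockdown gave a difference of 0.53 (SE 0.14, adjusted p = 0.0841) and combined knockdown one of 0.39 (adjusted p = 0.233), while YAP knockdown gave -0.07 (adjusted p = 0.973). Neither TAZ nor combined knockdown passed against control over all arrays weighted equally, while both passed with array weights (adjusted p = 0.00588 and 0.038). Without siTAZ2 replicate 3, on which NR1H4 read 0.65 above the mean of the other siTAZ2 arrays, both passed, with 0.42 for TAZ (adjusted p = 0.0375) and 0.39 for combined knockdown (adjusted p = 0.0348). TAZ knockdown also passed without siTAZ2 replicate 1 (0.61, adjusted p = 0.02). Within the arrays of the same deposit, combined minus TAZ knockdown was -0.13 (95% interval -0.40 to 0.13, adjusted p = 0.775), or -0.025 without siTAZ2 replicate 3 (adjusted p = 0.957).

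NR5A2, the LRH-1 receptor, was lower in combined than in YAP knockdown. It read 6.07, 6.16 and 6.33 with siTAZ2_siYAP1 and 6.26 and 5.87 with siTAZ3_siYAP2. Values were 6.78, 6.61 and 6.54 with siYAP1 and 6.39, 6.34 and 6.52 with siYAP2. They were 6.22, 6.12 and 6.32 with siTAZ2 and 6.36 and 6.37 with siTAZ3, against 6.36, 6.46 and 6.62 in control. All 5 combined arrays lay below the 3 control arrays and below the 6 YAP arrays. NR5A2 fell by 0.41 log2 units in combined against YAP knockdown (SE 0.078, adjusted p = 0.0112), where 2.24% of all genes passed. This call was lost without siTAZ3_siYAP2 replicate 2, the lowest array, where the difference was -0.31 (adjusted p = 0.0867). Combined knockdown against control gave -0.35 (SE 0.094, adjusted p = 0.065), which passed without siTAZ2 replicate 3 (adjusted p = 0.0344) at the same size, because that array only enters the shared spread. It also passed without siTAZ3_siYAP2 replicate 1 (-0.45, adjusted p = 0.0144) or siTAZ2_siYAP1 replicate 3 (-0.39, adjusted p = 0.0491). Within the same deposit, combined minus TAZ knockdown was -0.17 (95% interval -0.34 to 0.01, adjusted p = 0.531), and siTAZ2 averaged 6.22, close to 6.19 with siTAZ2_siYAP1. TAZ knockdown gave -0.19 (adjusted p = 0.498) and YAP knockdown 0.05 (adjusted p = 0.968) against control.

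CEBPA, the leucine zipper factor, was lower in YAP than in TAZ knockdown. It read 8.53, 8.92 and 8.65 with siYAP1 and 8.91, 8.99 and 8.79 with siYAP2, and 8.90, 8.83 and 9.10 with siTAZ2 and 9.25 and 9.24 with siTAZ3. The pairs gave 8.92, 8.94 and 8.92 (siTAZ2_siYAP1) and 9.05 and 9.19 (siTAZ3_siYAP2), against 8.90, 8.89 and 8.83 in control. Both groups that held siTAZ3 lay above all control arrays, while arrays with siTAZ2 lay on both sides of the highest control array. WWTR1 was 8.42-fold lower with siTAZ3 and 5.96-fold lower with siTAZ2, and the part of this in the CEBPA values was not tested. The difference of YAP minus TAZ knockdown was -0.30 log2 units (SE 0.068, adjusted p = 0.015), or -0.26 without siTAZ2 replicate 3 (adjusted p = 0.0186). The call was lost without siTAZ3 replicate 1 (adjusted p = 0.0644), without siTAZ3 replicate 2 (adjusted p = 0.0656) and when only the groups compared were fitted (adjusted p = 0.0964). The 2 TAZ siRNAs differed by -0.30 (siTAZ2 minus siTAZ3, SE 0.10, adjusted p = 0.292), where 0.813% of all genes passed and none of the 9 factors did. Without siTAZ2 replicate 3 this difference was -0.38 and passed (adjusted p = 0.0462), as did siTAZ3 against control at 0.37 (adjusted p = 0.0378, against 0.117 over all arrays). The second of these also passed without siYAP1 replicate 2 (adjusted p = 0.0442).

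ONECUT1, the HNF6 factor, was highest with siYAP2. It read 5.70, 5.78 and 5.70 with siYAP2 and 5.48, 5.40 and 5.12 with siYAP1. TAZ siRNAs gave 5.18, 5.49 and 5.61 (siTAZ2) and 5.26 and 5.53 (siTAZ3). The pairs gave 5.26, 5.37 and 5.33 (siTAZ2_siYAP1) and 5.25 and 5.0 (siTAZ3_siYAP2), against 5.19, 5.07 and 5.32 in control. The 3 siYAP2 arrays lay above the other 16, and siYAP1 arrays overlapped control. ONECUT1 rose 1.45-fold with siYAP2 (0.54 log2 units, SE 0.12, adjusted p = 0.015) and was the only 1 of the 9 to pass there, where 3.72% of all genes passed. The call was lost without control replicate 1 (adjusted p = 0.0551), control replicate 2 (adjusted p = 0.0854) or siYAP2 replicate 2 (adjusted p = 0.0703). With siYAP1 the difference from control was 0.14 (adjusted p = 0.829), and 0 of 9 factors passed there, where 0.88% of all genes did. The difference between siYAP1 and siYAP2 was -0.39 (SE 0.12, adjusted p = 0.0761), and passed without siTAZ2 replicate 3 (adjusted p = 0.0352) or siTAZ2 replicate 1 (adjusted p = 0.0363). Between the 2 YAP siRNAs 4.83% of all genes and none of the 9 factors passed over all arrays. In the interaction, which sets the effect of YAP siRNA on top of TAZ siRNA against its effect alone, ONECUT1 gave -0.53 (SE 0.14, adjusted p = 0.279). YAP1 itself passed there (0.84, adjusted p = 0.00105), so YAP silencing with and without TAZ siRNA was not equal.

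Of the 9 factors, HNF4A and FOXA1 deviated furthest on siTAZ2 replicate 3. HNF4A read 10.86 and 10.77 on the other siTAZ2 arrays but 10.04 on this one, and 10.84 and 10.69 with siTAZ3. It read 10.80, 10.79 and 10.73 with siTAZ2_siYAP1, 10.79 and 10.52 with siTAZ3_siYAP2, 10.35 to 10.58 on the 6 YAP arrays, and 10.55, 10.39 and 10.52 in control. In all, 4 of 5 TAZ arrays and 4 of 5 combined arrays lay above control, and the remaining TAZ array lay below every other array. TAZ knockdown minus control was 0.17 (SE 0.14, adjusted p = 0.756) over all arrays and 0.30 (SE 0.073, adjusted p = 0.0284) without siTAZ2 replicate 3. With siTAZ2 alone the difference was 0.07, and it was -0.08 without replicate 1, -0.04 without replicate 2 and 0.32 without replicate 3 (adjusted p = 0.0459). Combined minus control was 0.22 (adjusted p = 0.636), and YAP minus control was -0.01 (95% interval -0.29 to 0.27).

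FOXA1, a pioneer factor, read 10.42, 10.36 and 9.65 with siTAZ2 and 10.17 and 10.14 with siTAZ3. It read 10.08, 9.96 and 9.89 with siYAP1 and 10.02, 10.07 and 10.11 with siYAP2. The pairs gave 10.12, 10.11 and 10.09 (siTAZ2_siYAP1) and 9.99 and 9.83 (siTAZ3_siYAP2), against 9.84, 9.76 and 9.80 in control. All 6 YAP arrays, 4 of 5 TAZ arrays and 4 of 5 combined arrays lay above the 3 control arrays. Against control the difference was 0.22 for YAP (adjusted p = 0.651), 0.35 for TAZ (adjusted p = 0.242) and 0.21 for combined knockdown (adjusted p = 0.628), and none passed. Without siTAZ2 replicate 3 the 3 differences were 0.22 (adjusted p = 0.0196), 0.47 (adjusted p = 0.000127) and 0.21 (adjusted p = 0.0271), and all passed. With siTAZ2 the difference from control was 0.34 (adjusted p = 0.304) over all arrays and 0.59 (adjusted p = 4.75e-05) without siTAZ2 replicate 3. Combined minus TAZ knockdown, within the same deposit, was -0.26 without that array (adjusted p = 0.0112), against -0.14 (adjusted p = 0.728) over all arrays. The interaction, which was -0.36 over all arrays (adjusted p = 0.707), was -0.48 without that array (SE 0.070, adjusted p = 0.005). The siRNA target YAP1 itself passed in the interaction over all arrays (0.84, adjusted p = 0.00105), so YAP silencing with and without TAZ siRNA was not equal. The part of this in the FOXA1 value was not tested.

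FOXA2 and FOXA3 passed in none of the 16 comparisons, with or without siTAZ2 replicate 3. FOXA2 lay between 7.96 and 8.23 in YAP, 7.85 and 8.35 in TAZ and 8.0 and 8.41 in combined knockdown, against 8.02 to 8.35 in control. Its lowest value was again that of siTAZ2 replicate 3, which was 0.46 below the mean of the other siTAZ2 arrays. FOXA3 lay between 6.77 and 7.07 in YAP, 6.79 and 7.25 in TAZ and 7.07 and 7.38 in combined knockdown, against 6.69 to 7.19 in control. Its difference from control was 0.28 in combined knockdown (95% interval 0.01 to 0.55, adjusted p = 0.41) and -0.02 in YAP knockdown.

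PROX1 had higher values on every array that carried a TAZ siRNA than on any control array. It read 9.67, 9.66 and 9.50 with siTAZ2 and 9.74 and 9.63 with siTAZ3. The pairs gave 9.57, 9.63 and 9.71 (siTAZ2_siYAP1) and 9.62 and 9.56 (siTAZ3_siYAP2). YAP siRNAs gave 9.63, 9.35 and 9.27 (siYAP1) and 9.46, 9.46 and 9.44 (siYAP2), against 9.37, 9.28 and 9.45 in control. The YAP arrays overlapped both. TAZ minus control was 0.28 (SE 0.075, adjusted p = 0.0736) and combined minus control was 0.25 (SE 0.075, adjusted p = 0.115), and neither passed over all arrays. Without siTAZ2 replicate 3 TAZ knockdown passed at 0.31 (adjusted p = 0.0251) and combined knockdown did not (adjusted p = 0.0544). Without siYAP1 replicate 1, the highest YAP array, both passed (adjusted p = 0.0197 and 0.0314), and YAP minus TAZ knockdown passed at -0.26 (adjusted p = 0.00578), against -0.21 (adjusted p = 0.0663) over all arrays and -0.24 (adjusted p = 0.0245) without siTAZ2 replicate 3. The mean hepatocyte marker level was also above control on all 10 arrays with a TAZ siRNA.

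Set against control as a group, 0 of the 9 factors passed in YAP, TAZ or combined knockdown by limma over all arrays, where 1.73%, 1.97% and 2.59% of all genes passed. At an unadjusted p under 0.05, 1 factor was reached in YAP, 4 in TAZ and 4 in combined knockdown, as were 9.58%, 11.4% and 11.6% of all genes. The median difference of the 9 factors from control was -0.01 in YAP, 0.22 in TAZ and 0.21 in combined knockdown, where the median of all genes was 0.00 in each. These 3 comparisons share the 3 control arrays. By single siRNA or pair, 0 of 9 passed with siTAZ2 (2.37% of all genes), siTAZ3 (1.16%), siTAZ2_siYAP1 (2.44%) and siTAZ3_siYAP2 (2.66%). At an unadjusted p under 0.05 these counts were 4, 4, 3 and 4, beside 12.6%, 8.91%, 11.1% and 10.9% of all genes. In combined against TAZ knockdown 0 of 9 passed (0.747% of all genes), and 0 of 9 at an unadjusted p under 0.05 (9.99% of all genes). For combined against YAP knockdown 1 of 9 passed (2.24%), and 6 of 9 at an unadjusted p under 0.05 (11.8%). For YAP against TAZ knockdown these counts were 2 (5.59%) and 4 (15.2%). Between the pairs 0 of 9 passed (2.48% of all genes), and in the interaction 0 of 9 passed (0.125% of all genes), with 2 factors, FOXA1 and ONECUT1, at an unadjusted p under 0.05 (6.9% of all genes). With array weights as the alternative, counts were 1, 4 and 3 of 9 in YAP, TAZ and combined knockdown. They were ONECUT1 in YAP, HNF4A, FOXA1, PROX1 and NR1H4 in TAZ, and PROX1, NR1H4 and NR5A2 in combined knockdown. The share of all genes that passed with weights is not given here, so these counts cannot be set against it.

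**Figure D2:**
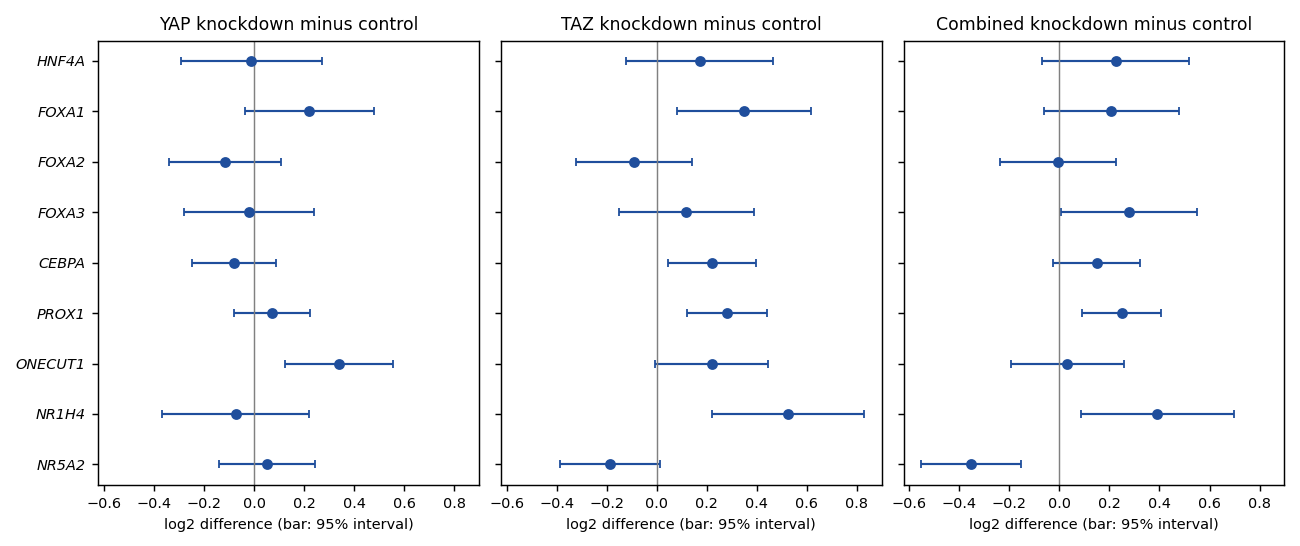
Difference from control in log2 units (horizontal axes) of the 9 factors (rows) in YAP, TAZ and combined knockdown over all 19 arrays. Points are limma estimates and bars are 95% intervals. The intervals of NR1H4 and PROX1 lie right of 0 in TAZ and combined knockdown and that of NR5A2 lies left of 0 in combined knockdown. Those of ONECUT1 in YAP, FOXA1 and CEBPA in TAZ and FOXA3 in combined knockdown also lie right of 0. None of the 27 adjusted p-values was under 0.05.

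Leaving out siTAZ2 replicate 3 changed how many genes passed in every comparison, since all groups share an estimate of the spread. Without it 4.47%, 4.69% and 6.17% of all genes passed in YAP, TAZ and combined knockdown against control. FOXA1 was then the 1 factor to pass in YAP knockdown. In TAZ knockdown HNF4A, FOXA1, PROX1 and NR1H4 passed, all 4 higher than control. In combined knockdown FOXA1 and NR1H4 were higher and NR5A2 lower. For YAP against TAZ knockdown (9.27% of all genes) 5 factors passed, and HNF4A, FOXA1, CEBPA, PROX1 and NR1H4 were all lower in YAP knockdown. In combined against YAP knockdown (6.3% of all genes) HNF4A, CEBPA and NR1H4 were higher and ONECUT1 and NR5A2 lower. FOXA1 was the 1 factor that passed in combined against TAZ knockdown (1.29% of all genes) and in the interaction (0.391%). The counts against control were 0 with siYAP1 (2.47% of all genes), 2 with siYAP2 (7.08%), 2 with siTAZ2 (5.1%) and 3 with siTAZ3 (3.55%). They were 2 with siTAZ2_siYAP1 (6.05%) and 2 with siTAZ3_siYAP2 (5.7%). Between siRNAs, 1 factor passed for siYAP1 against siYAP2 (ONECUT1, 8.49% of all genes), 1 for siTAZ2 against siTAZ3 (CEBPA, 4.32%) and 0 between the pairs (5.88%). The part of sample quality in the values of this array was not tested. Against the mean of the other siTAZ2 arrays it was lower by 0.77 for HNF4A and by 0.74 for FOXA1, and 93.9% and 93.2% of all genes deviated less.

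**Figure D3:**
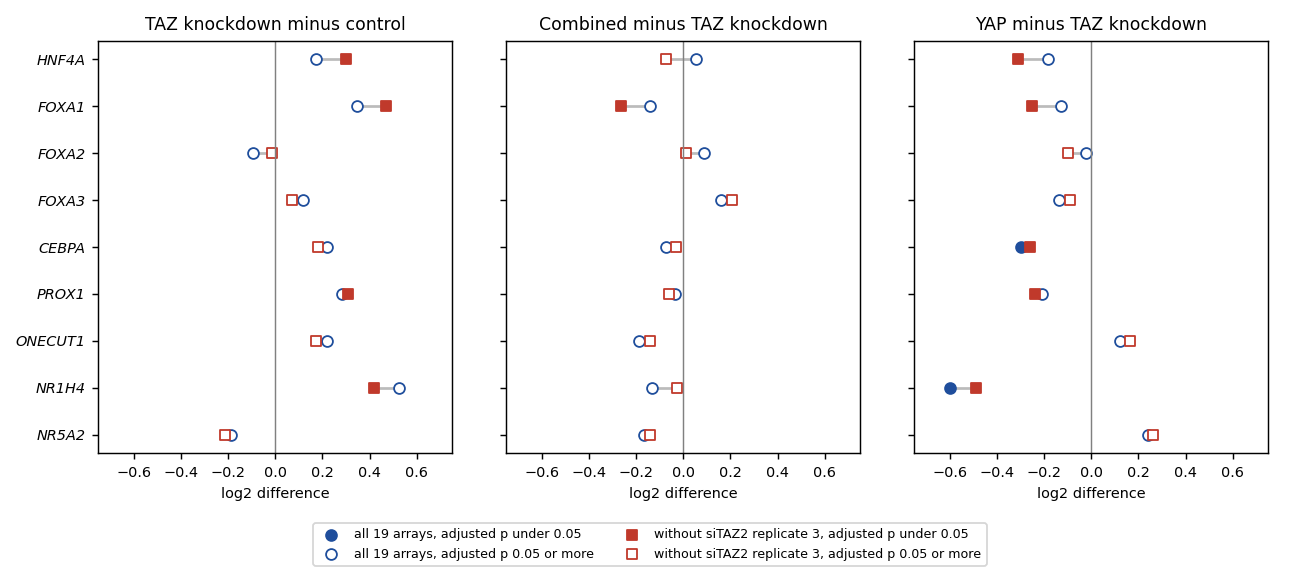
Log2 difference (horizontal axes) of the 9 factors (rows) for TAZ knockdown minus control, combined minus TAZ knockdown and YAP minus TAZ knockdown. Circles are the fit to all 19 arrays and squares the fit without siTAZ2 replicate 3, filled where the adjusted p was under 0.05. HNF4A and FOXA1 move to the right in TAZ knockdown minus control, to 0.30 and 0.47, while NR1H4 moves to the left, to 0.42, with filled squares for all 3.

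The other liver factors and the known target genes of the 9 were read from lists of 20 other liver-enriched factors and cofactors and of 8 to 14 targets per factor or group. Over these lists few members passed, and those that did were mostly higher than in control. Of all genes, 1.73% passed in YAP, 1.97% in TAZ and 2.59% in combined knockdown against control, beside which the list counts stand. Among the other factors and cofactors, 0 of 20 passed in YAP and 0 of 20 in TAZ knockdown, where the largest differences were CREB3L3 at 0.69 (adjusted p = 0.59) and PPARGC1A at 0.40 (adjusted p = 0.0945). In combined knockdown 3 of 20 rose. They were PPARGC1A, a coactivator of gluconeogenic genes with HNF4A (0.62 log2 units, SE 0.11, adjusted p = 0.0056), NR0B2 (SHP), a repressor induced by NR1H4 (0.47, adjusted p = 0.0302), and TBX3, a T-box repressor of the hepatoblast (0.24, adjusted p = 0.042). The calls of NR0B2 and TBX3 were lost when single arrays were left out (7 and 14 of 19 fits), with an adjusted p of up to 0.155 and 0.251. TBX3 also missed with an intensity trend (adjusted p = 0.0658), the dimmest 30% of genes left out (0.0688) or only the groups compared (0.107). With siTAZ2_siYAP1 2 of 20 rose, where 2.44% of all genes passed. ONECUT2 was among them (0.83, adjusted p = 0.0274), but did not pass with siTAZ3_siYAP2 (0.34, adjusted p = 0.662). Without siTAZ2 replicate 3, 2 of 20 rose in YAP, 3 of 20 rose in TAZ, and 5 of 20 rose and 1 fell in combined knockdown. Of all genes 4.47%, 4.69% and 6.17% then passed.

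Of 10 HNF4A targets, MTTP, the triglyceride transfer protein of lipoprotein assembly, rose in YAP knockdown by 0.37 (SE 0.0535, adjusted p = 0.00136) and in combined knockdown by 0.49 (SE 0.0557, adjusted p = 0.000102). SLC2A2, the hepatic glucose transporter GLUT2, fell by 0.37 in YAP knockdown (SE 0.0529, adjusted p = 0.00113). These were 1 gene up and 1 down in YAP and 1 up in combined knockdown, and both genes kept their YAP call in 19 of 19 fits that left out an array. By siRNA they passed with siYAP2 (0.58 and -0.48, adjusted p = 2.51e-05 and 0.000133) but not with siYAP1 (0.15 and -0.26, adjusted p = 0.441 and 0.0721). The difference between siYAP1 and siYAP2 passed for MTTP (-0.43, adjusted p = 0.00045) and for SLC2A2 (0.23, adjusted p = 0.0418). In TAZ knockdown 0 of 10 passed, with OTC at 0.29 (adjusted p = 0.409). Without siTAZ2 replicate 3, 3 of 10 rose in TAZ (4.69% of all genes passed) and 4 of 10 in combined knockdown (6.17%). The 10 targets had a median difference of 0.07 in YAP, 0.10 in TAZ and 0.16 in combined knockdown. In combined against TAZ knockdown, within the same deposit, MTTP rose by 0.30 (adjusted p = 0.00788) and SLC2A2 fell by 0.27 (adjusted p = 0.0152). Those 2 calls were lost when only the groups compared were fitted (adjusted p = 0.161 and 0.201). In YAP against TAZ knockdown SLC2A2 was lower (-0.57, adjusted p = 2.56e-06) and MTTP higher (0.17, adjusted p = 0.0419), where 5.59% of all genes passed. Leaving out single arrays ended this call of MTTP in 12 of 19 fits and that of SLC2A2 in 0.

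CPS1, the first enzyme of the urea cycle, was the 1 of 9 FOXA targets and 1 of 8 CEBPA targets to pass in YAP, TAZ and combined knockdown. With siYAP1, siTAZ2 and siTAZ2_siYAP1 against control, 0 of 9 and 0 of 8 passed. With siYAP2 the CEBPA target UGP2 fell (-0.47, adjusted p = 0.0166), a call lost in 3 of 19 fits that left out an array (adjusted p of up to 0.0952). CPS1 rose in each of the 3 knockdowns. It rose by 0.27 in YAP (adjusted p = 0.0293), 0.30 in TAZ (adjusted p = 0.0201) and 0.34 in combined knockdown (adjusted p = 0.0056). The YAP call was lost in 7 of 19 fits that left out an array, and the TAZ call in 4, with an adjusted p of up to 0.214 and 0.127. CPS1 passed with siYAP2 (0.47, adjusted p = 0.000575) and not with siYAP1 (0.07, adjusted p = 0.881), and these siRNAs differed (-0.40, adjusted p = 0.00195). The YAP call was also lost with an intensity trend (adjusted p = 0.064), and the TAZ call when only the groups compared were fitted (adjusted p = 0.244). FOXA targets had a median difference of 0.07, 0.11 and 0.12 in YAP, TAZ and combined knockdown, and CEBPA targets one of 0.04, 0.09 and 0.06. Albumin (ALB), on both lists, had differences of 0.07, 0.11 and 0.06, of which none passed (adjusted p of 0.842, 0.505 and 0.849).

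Among 14 known NR1H4 targets the fibrinogen chains moved with TAZ knockdown. FGB rose by 0.41 (SE 0.066, adjusted p = 0.00333), FGG by 0.37 (SE 0.052, adjusted p = 0.00152) and FGA by 0.32 (SE 0.051, adjusted p = 0.0036), 3 of 14 up and 0 down. Those calls held in 19 of 19 fits that left out an array and were lost when only the groups compared were fitted (adjusted p = 0.102, 0.0963 and 0.0909). In combined knockdown FGB (0.34, adjusted p = 0.00864), FGG (0.26, adjusted p = 0.0126) and NR0B2 rose, again 3 of 14, and FGA did not pass at 0.02 (adjusted p = 0.971). FGA was lower in combined than in TAZ knockdown by 0.30 (adjusted p = 0.00434), within the same deposit, a call lost when only the groups compared were fitted (adjusted p = 0.0666). Leaving out control replicate 1 ended the combined call of FGB (adjusted p = 0.0738), and the call of FGG was lost without control replicate 1, control replicate 2 or siTAZ3_siYAP2 replicate 2 (adjusted p of at most 0.0918). In YAP knockdown 0 of 14 passed, with SLC51A at 0.34 (adjusted p = 0.563). By siRNA, however, FGB rose with siYAP2 (0.38, adjusted p = 0.00634), a call kept in 19 of 19 fits that left out an array. It was the 1 of 14 to pass there, where 3.72% of all genes passed, and 0 of 14 passed with siYAP1. In YAP against TAZ knockdown 4 of 14 were lower, where 5.59% of all genes passed. They were FGA (-0.49, adjusted p = 5.25e-06), FGG (-0.33, adjusted p = 0.000197), KNG1 (-0.36, adjusted p = 0.0463) and FGB (-0.21, adjusted p = 0.0307). Leaving out single arrays ended this call of KNG1 in 12 and that of FGB in 6 of 19 fits. SLC51B, a subunit of the bile acid exporter and a well-known NR1H4 target, gave 0.36 in TAZ (adjusted p = 0.548) and 0.34 in combined knockdown (adjusted p = 0.582). FGF19, the bile-acid-induced hormone, lay under the olfactory receptor background at a mean of 4.42 in TAZ knockdown, against 4.46 in control. The median difference of the 14 targets was 0.03 in YAP, 0.17 in TAZ and 0.13 in combined knockdown.

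Of 8 NR5A2 targets, the sterol transporter gene ABCG5 rose in TAZ knockdown (0.43, SE 0.083, adjusted p = 0.0121) and in combined knockdown (0.36, adjusted p = 0.0276), where NR0B2, also on this list, rose too. That was 1 of 8 in TAZ and 2 of 8 in combined knockdown, none lower, while NR5A2 itself differed from control by -0.19 and -0.35, neither of which passed. In YAP knockdown 0 of 8 passed, with ABCG5 at 0.17 (adjusted p = 0.508). With siYAP2 alone ABCG5 passed (0.39, adjusted p = 0.026). That call was lost in 4 of 19 fits that left out an array and with an intensity trend (adjusted p = 0.0531). The TAZ call of ABCG5 was lost without control replicate 3 or siTAZ3 replicate 2 (adjusted p of at most 0.0855) and the combined call without control replicate 1, control replicate 3 or siTAZ3_siYAP2 replicate 1 (at most 0.206). Fitting only the groups compared ended both calls (adjusted p = 0.101 and 0.1), and an intensity trend ended the combined call (adjusted p = 0.0542). The 8 targets had a median difference of 0.04, 0.05 and 0.13 in YAP, TAZ and combined knockdown.

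**Figure D4:**
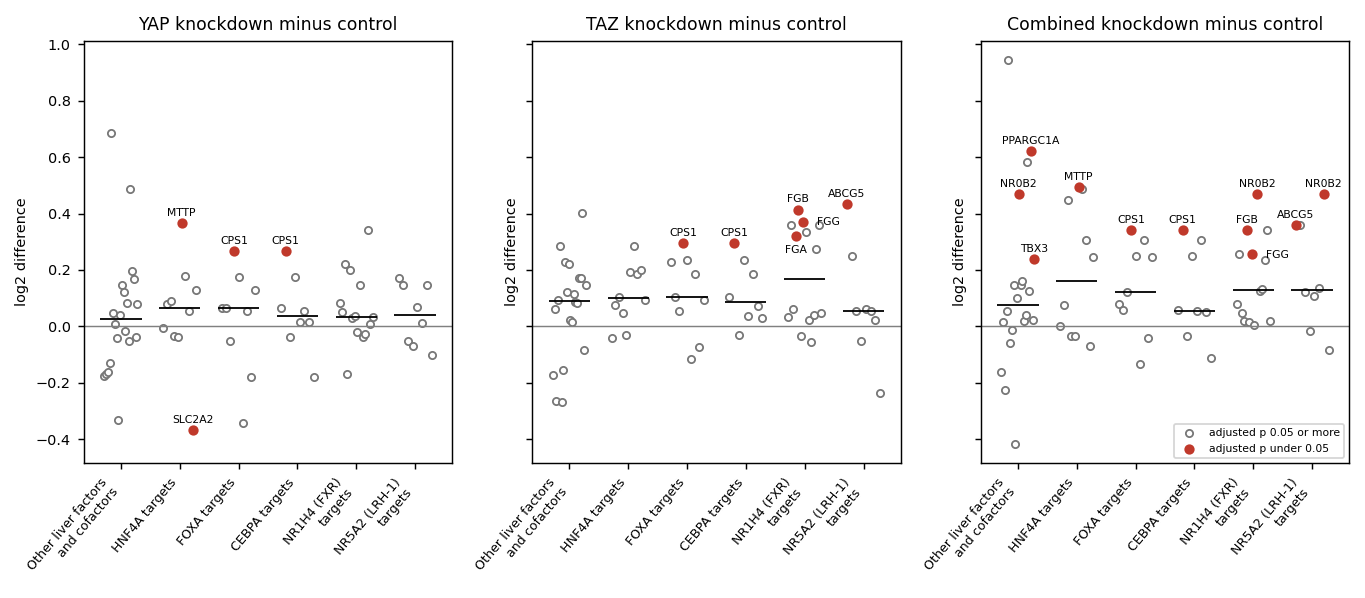
Difference from control in log2 units (vertical axes) of each member of 6 gene lists (horizontal axis) in YAP, TAZ and combined knockdown. Points are genes, filled and named where the adjusted p was under 0.05, and lines are list medians. SLC2A2 is the 1 named gene below 0, and NR0B2 and CPS1 appear in more than 1 list.

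Few marker genes passed by themselves, although the mean hepatocyte marker level was above control on every array with a TAZ siRNA and on 3 of 3 siYAP2 arrays. The fetal liver, progenitor and biliary mean was above all controls on 3 of 3 siYAP2, 2 of 2 siTAZ3 and 2 of 2 siTAZ3_siYAP2 arrays. It was above them on 1 of 3 siTAZ2 arrays and below them on 3 of 3 siTAZ2_siYAP1 arrays. With siYAP1 it was above them on 1 and below them on 2 of 3 arrays. The immune mean was above control on 2 of 2 siTAZ3 and 2 of 2 siTAZ3_siYAP2 arrays, and on 0 of 3 siTAZ2 arrays. The stromal mean was below all controls on 2 of 3 siYAP1, 2 of 3 siYAP2 and 2 of 3 siTAZ2 arrays. It was below them on 2 of 2 siTAZ3, 3 of 3 siTAZ2_siYAP1 and 1 of 2 siTAZ3_siYAP2 arrays. Of these immune and stromal markers only CD68 and COL1A1 were above the olfactory receptor background. Of 9 hepatocyte markers FGB, which is also on the NR1H4 target list, alone passed in TAZ and in combined knockdown against control, and with siYAP2. Of 11 fetal liver, progenitor and biliary markers KRT19, a biliary keratin, was lower in combined knockdown (-0.34, adjusted p = 0.0434), a call lost on leaving out 13 of the 19 arrays in turn, with an adjusted p of up to 0.203. Between knockdowns, PROM1 (CD133), a progenitor marker, was higher in YAP than in TAZ knockdown (0.42, adjusted p = 0.0102) and lower in combined than in YAP knockdown (-0.46, adjusted p = 0.0127). The first of these calls was lost when only the groups compared were fitted (adjusted p = 0.0508), and the second without siTAZ3_siYAP2 replicate 1 (adjusted p = 0.0629). DLK1 was higher in combined than in YAP knockdown (0.26, adjusted p = 0.0394) and SPP1 lower in YAP than in TAZ knockdown (-0.14, adjusted p = 0.0413), each lost on leaving out 16 of the 19 arrays in turn. None of the immune, endothelial and stromal markers passed in YAP, TAZ or combined knockdown against control. SOX9, a biliary and progenitor factor that YAP is known to raise in mice, gave -0.16 in YAP (adjusted p = 0.449), 0.04 in TAZ (adjusted p = 0.93) and 0.05 in combined knockdown (adjusted p = 0.919). In this culture, fewer cells of a kind and less RNA per cell cannot be told apart.

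Over the 19 arrays the closest pairs among the 9 factors were HNF4A and FOXA1 (Pearson r of 0.754) and CEBPA and NR1H4 (0.720). The order changed without siTAZ2 replicate 3, with HNF4A and PROX1 (0.734) and CEBPA and NR1H4 (0.730) closest and HNF4A and FOXA1 at 0.672. The lowest correlation was that of CEBPA and NR5A2 over all arrays (-0.554) and that of NR1H4 and NR5A2 without that array (-0.624). HNF4A and NR1H4 had a correlation of 0.017 over all arrays and of 0.537 without siTAZ2 replicate 3. These describe arrays that share their knockdown and their deposit, and no test was made. Of all named genes, the one most like NR1H4 over the 19 arrays was GPAM, a glycerol phosphate acyltransferase (r = 0.902), followed by HS3ST3B1 and GOPC. Most like HNF4A were DDX19B (0.930), WFS1 and BCAM, and most like CEBPA were F2, the prothrombin gene (0.885), MIS12 and GPAM. The first-ranked genes for the others were LRIG1 for FOXA1 (0.892), FBRS for FOXA2 (0.850), PLAAT3 for FOXA3 (0.850), ST6GALNAC2 for PROX1 (0.900), PCMTD1 for ONECUT1 (0.806) and RIT1 for NR5A2 (0.849).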

How the data were processed

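Arrays of HepG2 RNA were prepared by the standard Affymetrix biotin protocol, per the labels' protocols. The authors computed the deposited log2 values with RMA, per the submitters' processing notes, and neither its version nor the probe-set definition is given there. Sorted, the 19 columns are identical, from 3.17 to 13.78 with a median of 4.83, so a shift common to all genes would have been removed. Arrays have no read depth, and their number limits the precision.

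The table holds 25582 probe sets, of which the platform annotation names 24244 with 1 symbol each. For 3 symbols with 2 probe sets the brighter was kept, leaving 25579 genes. The identifier is an Entrez number plus a suffix on all 24244 annotated rows. HNF4A and NR1H4 were found by that number through RefSeq, and the other 7 factors through the annotation. Using limma 3.58.1 (lmFit, contrasts.fit, eBayes; R 4.3.3), each of the 7 groups was given a mean in a fit to the 19 arrays, with no filter, 16 comparisons and a threshold of 0.05 after Benjamini-Hochberg adjustment over all genes. For YAP, TAZ and combined knockdown the 2 siRNAs or pairs were averaged with equal weight. The fit was tested on simulated data with the same spread on every array, which does not cover a deviating array such as siTAZ2 replicate 3. The factors and gene lists were chosen with earlier results of these data known. Named are the 9 factors and the siRNA targets. For YAP, TAZ and combined knockdown against control, members of each factor or target list that passed are named (up to the 4 largest). Where none did, the largest is named. In other comparisons, and for marker lists, not every such member is named. ALB, SLC51B, FGF19, SOX9 and the second named gene of a list without calls were chosen after their values were seen. Promoters were matched by symbol. Alternatives were an intensity trend, robust eBayes, the dimmest 30% of genes left out, the mean of probe sets, renewed quantile normalization, median centring, a fit to just the groups compared, a block for replicate number, array weights and each array left out.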

Additional observations from a re-analysis of the deposited data

How the results depend on the processing

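Differences of at least 0.2 log2 units, and those that passed under any setting, made 63 results of single factors. With an intensity trend, robust eBayes, the mean of probe sets, renewed quantile normalization and median centring, all 63 kept direction and side of the threshold, and so did all 16 counts of factors that passed. The cause of the changes below was not tested, and the counts stand without the share of all genes that passed under each setting. With the dimmest 30% of genes left out the count for combined against YAP knockdown was 2. With only the groups compared it was 2 for siYAP2, 3 for siTAZ3 and 2 for siTAZ2_siYAP1 against control, 3 for combined against YAP and 1 for YAP against TAZ knockdown. With array weights, whose estimation stopped before full convergence and which gave siTAZ2 replicate 3 a weight of 0.128, counts against control were 2 for siYAP2, 5 for siTAZ2, 4 for siTAZ3, 4 for siTAZ2_siYAP1, 1 for YAP, 4 for TAZ and 3 for combined knockdown. They were 3 for combined against YAP, 6 for YAP against TAZ, and 1 each for siYAP1 against siYAP2, siTAZ2 against siTAZ3 and the interaction.

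Same-numbered arrays had correlations of deviations from -0.11 to 0.12 (9 pairs) in the earlier deposit and from -0.28 to 0.23 (13 pairs) among TAZ and combined arrays. Differently numbered arrays had -0.15 to 0.17 (18 pairs) and -0.23 to 0.28 (24 pairs). Whether replicate numbers pair the samples cannot be decided from this, because deviations from the mean of so few arrays cancel out within each group. With the replicate number as a block, NR1H4 passed against control for siTAZ2, siTAZ3, siTAZ3_siYAP2, TAZ and combined knockdown (a count of 1 each, with NR1H4 at 0.60 in TAZ and 0.47 in combined knockdown), and combined against YAP knockdown had 2. The block changed no other count.

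Leaving out each array in turn, counts ran from 0 to 0 for siYAP1, 0 to 2 for siYAP2, 0 to 2 for siTAZ2, 0 to 3 for siTAZ3, 0 to 2 for each pair, 0 to 1 for YAP, 0 to 4 for TAZ and 0 to 3 for combined knockdown against control. They ran from 0 to 1 for combined against TAZ, 0 to 5 for combined against YAP, 1 to 5 for YAP against TAZ, 0 to 1 between the YAP siRNAs, between the TAZ siRNAs and for the interaction, and 0 to 0 between the pairs. Of 47 calls gained in these fits, 29 came without siTAZ2 replicate 3, and 6 calls were lost. The number of all genes that passed moved too. It ran from 207 to 1199 for TAZ knockdown against control (503 over all arrays). It ran from 277 to 1612 for combined against YAP knockdown (574) and from 843 to 2371 for YAP against TAZ knockdown (1429). In every comparison its highest value came without siTAZ2 replicate 3, so the 29 gained calls came where more of all genes passed. HNF4A with siTAZ2 against control ran from -0.0824 to 0.32 and changed sign without siTAZ2 replicate 1 or 2. The difference of HNF4A between siTAZ2 and siTAZ3, -0.21 over all arrays, ran from -0.36 to 0.0469. Groups of 2 or 3 arrays limit what could be called.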
